A study of Mus musculus with 97 samples.

Results

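Collagen genes were described in the whole colon of mice given antibiotics by 1 of 3 routes. The set holds the genes named Col, a number, a, and 1 digit whose level reached 1 TPM (a length-scaled share of each library's transcripts) in at least 4 libraries. Of 44 genes with such a name among 20457 in the table, 39 were members. They comprised 10 fibrillar collagens, 6 basement membrane collagens (the type IV chains) and 23 other collagens. The 5 that did not reach the minimum were Col2a1 (1 library at 1 TPM or more), Col6a6 (3 libraries), and Col9a1, Col10a1 and Col19a1 (0 libraries each). At the other side of the minimum lay Col17a1, with 15 libraries at 1 TPM or more and a median of 0.419 TPM.

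All mice were C57BL6/J and 8 to 12 weeks old, and poly(A) RNA of the whole colon was sequenced. Mice received 2.5 mg of ampicillin, metronidazole, neomycin or vancomycin, or a mix of the 4, in 100 µl of phosphate-buffered saline (PBS), or 100 µl of PBS alone. Treatment was by oral gavage (PO), intraperitoneal injection (IP) or intravenous injection (IV), 2 times a day for 3 days and once on day 4, and colons were collected 4 hours later. The 18 groups held 97 libraries: 6 in 11 groups, 5 in Neomycin-IV, PBS-IV and Vancomycin-IV, and 4 in each of the groups PBS-IP, Vancomycin-IP, Metronidazole-IV and Metronidazole-IP. Each antibiotic group was compared with the PBS group of its own route, so the 5 comparisons of a route share their controls.

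Collagens are secreted or membrane proteins built from 3 chains wound into a triple helix. Fibrillar collagens (types I, III and V in most soft tissue) assemble into the fibrils that give the submucosa its tensile strength. Type IV collagen forms a sheet-like network in basement membranes under the epithelium and around smooth muscle cells, vessels and glia, and the remaining types decorate fibrils, form microfilaments and anchoring structures, or span the cell membrane. In the gut wall, fibroblasts and smooth muscle cells are the main sources, so collagen RNA in a bulk colon sample depends on how much of the wall the sample holds.

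TPM values sum to 1000000 in each library and carry no sequencing depth. No pair of libraries was identical. Markers of colonocytes and of goblet cells were present in each library. A score of smooth muscle content, which averages log2(TPM + 1) over 18 contractile and cytoskeletal genes with no collagen among them, ran from 7.14 to 11.4 with a median of 9.29, so libraries of 1 group could differ widely in muscle content. A score of 5 posterior Hox genes, used below as a measure of distal position, ran from 0.80 to 6.15. 12 libraries stand out of order at the end of the deposited table, 3 of them in Vancomycin-IP and 2 in PBS-IP.

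Promoter windows are shown for 5 members because the results turn on their levels. Col4a1 and Col4a2 encode the 2 chains of the commonest type IV molecule and their starts lie side by side in the genome. Col3a1 was the most abundant member, Col1a2 the next, and Col6a4 was the member that fell where muscle content rose. The windows run from 250 bases before to 50 after the annotated start and come from RefSeq (GRCm38.p6, an older build than the one behind the TPM values). Col4a1 lies at chr8:11312777-11313076 on the minus strand and Col4a2 at chr8:11312555-11312854 on the plus strand. Their annotated starts are 21 bases apart on opposite strands, and capitals mark the 78 bases that both windows hold. Col1a2 lies at chr6:4505368-4505667 (plus strand), Col3a1 at chr1:45311288-45311587 (plus strand) and Col6a4 at chr9:106096642-106096941 (minus strand). In these 3, capitals mark matches on either strand to CCAAT, to the GC box GGGCGG, to the TATA box TATAAA or to the CArG box.
Col4a1: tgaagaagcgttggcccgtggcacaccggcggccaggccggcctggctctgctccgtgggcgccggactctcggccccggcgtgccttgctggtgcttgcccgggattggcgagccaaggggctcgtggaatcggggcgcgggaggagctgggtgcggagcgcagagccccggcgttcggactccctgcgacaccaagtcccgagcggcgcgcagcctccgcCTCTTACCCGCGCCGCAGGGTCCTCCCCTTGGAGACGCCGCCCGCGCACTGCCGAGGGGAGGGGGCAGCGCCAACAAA
Col4a2: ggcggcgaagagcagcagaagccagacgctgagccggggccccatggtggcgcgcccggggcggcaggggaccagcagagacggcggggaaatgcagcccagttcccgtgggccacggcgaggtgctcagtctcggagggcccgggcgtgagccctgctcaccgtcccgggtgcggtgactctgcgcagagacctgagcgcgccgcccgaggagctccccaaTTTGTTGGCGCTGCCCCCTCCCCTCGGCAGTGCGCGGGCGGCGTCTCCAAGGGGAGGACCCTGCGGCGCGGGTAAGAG
Col1a2: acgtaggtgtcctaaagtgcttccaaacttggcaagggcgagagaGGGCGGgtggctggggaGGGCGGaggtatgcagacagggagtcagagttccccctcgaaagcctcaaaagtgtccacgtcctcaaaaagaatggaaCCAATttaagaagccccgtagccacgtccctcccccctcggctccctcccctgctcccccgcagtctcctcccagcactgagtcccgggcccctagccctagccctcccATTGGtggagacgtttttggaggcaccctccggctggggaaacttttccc
Col3a1: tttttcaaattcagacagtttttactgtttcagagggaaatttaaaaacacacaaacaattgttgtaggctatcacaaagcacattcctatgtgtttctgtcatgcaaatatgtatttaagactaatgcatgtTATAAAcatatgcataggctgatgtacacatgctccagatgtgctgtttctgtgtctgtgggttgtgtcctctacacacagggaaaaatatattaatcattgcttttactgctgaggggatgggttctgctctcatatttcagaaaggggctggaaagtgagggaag
Col6a4: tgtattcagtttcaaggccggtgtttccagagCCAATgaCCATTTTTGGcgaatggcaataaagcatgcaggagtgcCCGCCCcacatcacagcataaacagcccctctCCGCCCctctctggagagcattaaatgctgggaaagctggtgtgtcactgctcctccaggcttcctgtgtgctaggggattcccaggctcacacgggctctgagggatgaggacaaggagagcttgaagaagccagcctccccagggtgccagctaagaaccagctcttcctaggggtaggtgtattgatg

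The promoter windows read numbered 33 for 31 members, Col6a2 and Col18a1 with more than 1 window each. Windows that overlap, as those of Col4a1 and Col4a2 do, were counted separately. Col1a1, Col4a3, Col5a2, Col9a3, Col12a1, Col14a1, Col22a1 and Col26a1 had no entry. GGGCGG was in 22 of the 33 windows (66.7%) against 35.7% of all 32851 windows. CCAAT was in 12 (36.4% against 37.4%). TATAAA was in 4 (12.1% against 13.6%), those of Col3a1, Col11a2, Col13a1 and Col17a1. The CArG box, the site of serum response factor, was in 1 window (3.03% against 1.63%), that of Col6a4. Both strands were searched and no motif contains another. The Col4a1 and Col4a2 windows each held CCAAT and GGGCGG, Col1a2 held both motifs at 2 places each, and Col3a1 held neither.

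Levels of the collagens spanned 3 orders of magnitude. TPM is scaled by length, so levels of different genes can be set side by side. Type III and type I chains led: the median over 97 libraries was 505 TPM for Col3a1, 247 for Col1a2 and 204 for Col1a1. Col4a1 (193) and Col4a2 (164) followed, then the type VI microfilament chains Col6a1 (147), Col6a2 (111) and Col6a3 (107). The 5 leading genes held 38.7 to 65.4% of all collagen TPM, with a median of 56.6%, and Col3a1 alone held 12.7 to 27.8%. Neighbours in this order were close: Col1a1 was above Col1a2 in 25 of 97 libraries, and Col6a2 was above Col6a3 in 46 of 97.

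Among the other fibrillar collagens, Col5a1 (102 TPM) and Col5a2 (69.6), which set the diameter of type I fibrils, were well above Col5a3 (24.0). Col27a1 stood at 74.0, Col11a1 at 6.95, Col11a2 at 2.97 and Col24a1 at 2.02. Of the type IV chains outside the Col4a1 and Col4a2 molecule, Col4a5 stood at 14.7, Col4a6 at 4.57, Col4a4 at 1.55 and Col4a3 at 1.24. Fibril-associated collagens (FACIT), which sit on the surface of fibrils, ranged from Col16a1 (98.8) and Col12a1 (85.9) through Col9a2 (9.78), Col14a1 (7.92) and Col20a1 (5.79) to Col22a1 (1.49) and Col9a3 (1.07). Col18a1 (42.5), the precursor of endostatin, and Col15a1 (17.7) are collagens of the basement membrane zone. The network-forming short chains Col8a1 and Col8a2 stood at 18.6 and 5.44. The transmembrane collagens were Col23a1 (15.4), Col25a1 (12.0), Col13a1 (4.81) and Col17a1, a hemidesmosome component of squamous epithelium. The remaining members were Col6a4 (8.88), Col7a1 (7.31), which forms anchoring fibrils, Col28a1 (6.55), Col26a1 (4.67) and Col6a5 (1.93).

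Collagen as a whole varied widely between libraries. The collagen share of all TPM ran from 0.0634% in replicate 3 of Neomycin-IV to 0.868% in replicate 3 of Ampicillin-IV, with a median of 0.230%. These libraries had muscle scores of 7.57 and 11.4, and the second is the highest score of the series. The division among classes varied as follows. Fibrillar collagens made up 39.8 to 59.1% of collagen TPM (median 53.0%), basement membrane collagens 12.7 to 23.8% (median 16.7%) and other collagens 21.7 to 40.4% (median 30.4%).

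Summed fibrillar TPM was highest in Vancomycin-IP, at 3497 ± 854 (SD, n = 4), and next in Ampicillin-PO, at 2666 ± 1152 (SD, n = 6). It was lowest in Mix-IP, at 814 ± 781 (SD, n = 6), and in PBS-IP, at 902 ± 302 (SD, n = 4). PBS given by gavage had 1260 ± 658 (SD, n = 6) and PBS given intravenously 1421 ± 960 (SD, n = 5), so PBS-IP was the lowest of the 3 control groups. Basement membrane collagens had the same highest and lowest groups, with 1155 ± 241 (SD, n = 4) in Vancomycin-IP and 255 ± 231 (SD, n = 6) in Mix-IP. Other collagens reached 1502 ± 398 (SD, n = 4) in Vancomycin-IP and 509 ± 366 (SD, n = 6) in Mix-IP. In Mix-IP a single library stood at 2360 fibrillar TPM, and the lowest of that group was 312.

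**Figure D1:**
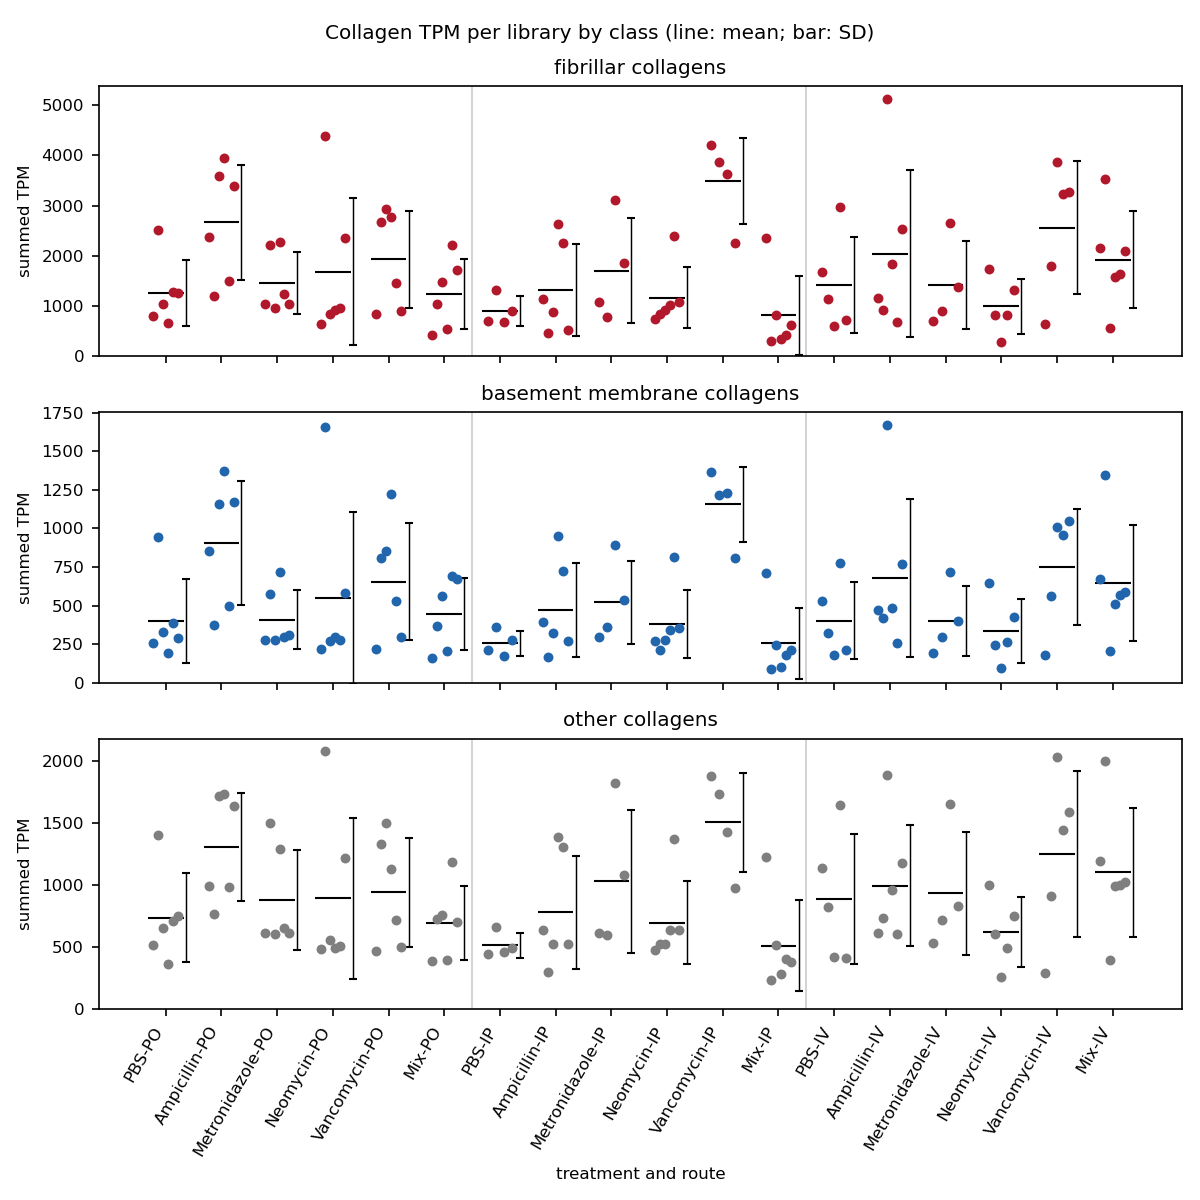
Summed TPM of the 10 fibrillar, 6 basement membrane and 23 other collagens in each of the 97 libraries (points), by treatment and route, with the group mean (line) and SD (bar). All 4 Vancomycin-IP libraries, between 2266 and 4212 fibrillar TPM, lie above the 4 PBS-IP libraries, between 677 and 1328.

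Intraperitoneal vancomycin was the comparison in which members passed the test. Vancomycin inhibits cell wall synthesis of Gram-positive bacteria. In Vancomycin-IP against PBS-IP, 16 of 39 members were called (adjusted p under 0.05 over all 17083 genes) and all 16 were higher. Over all genes 19.0% were called and 16% were called higher. The median difference in log2(TPM + 1) was 1.68 for fibrillar, 0.63 for basement membrane and 1.40 for other collagens, beside 0.11 for all genes. With Col15a1 and Col18a1 counted as basement membrane collagens, the median of that class was 0.92. In 24 of 39 members every Vancomycin-IP library lay above every PBS-IP library, as it did in 22.9% of all genes. The muscle score moved with these groups: it ran from 10.5 to 11.2 in Vancomycin-IP and from 8.23 to 9.05 in PBS-IP, with no overlap.

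Of the fibrillar collagens 5 were called. Col5a2 stood at 466, 281, 343 and 199.8 TPM in the 4 Vancomycin-IP libraries and at 31.7, 52.7, 38.9 and 55.0 in the 4 PBS-IP libraries. The groups did not overlap, and the difference was 2.79 on the log2 scale (SE 0.73, adjusted p = 0.0115). Col1a1, the alpha 1 chain of type I collagen, stood at 876, 656, 946 and 420.4 TPM against 119, 243, 92.9 and 154, a difference of 2.27 (SE 0.69, adjusted p = 0.0221). Col3a1, whose fibrils run through the submucosa, stood at 1763, 1770.4, 1333 and 950.0 against 279, 568, 241 and 349.6 (2.05, SE 0.67, adjusted p = 0.0292). Again each treated library was above each control. Col5a3 stood at 68.4, 77.3, 49.1 and 32.5 against 10.8, 13.6, 19.7 and 12.5 (1.89, SE 0.55, adjusted p = 0.0184). Col1a2 differed by 1.48 (SE 0.51, adjusted p = 0.0376), with 446 to 612 TPM against 133 to 299.6. The others, Col5a1, Col27a1, Col11a1, Col11a2 and Col24a1, differed by 0.61 to 1.72 and were not called.

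In the basement membrane class the pattern divided by chain. Col4a1 stood at 768, 676, 705 and 441 TPM in Vancomycin-IP and at 103, 193, 96.0 and 152 in PBS-IP (2.27, SE 0.61, adjusted p = 0.0137). Col4a2 stood at 556, 534, 471 and 320.2 against 83.9, 135, 63.1 and 95.9 (2.32, SE 0.65, adjusted p = 0.0157). Both chains of this molecule were higher in all 4 libraries. Col4a4, at 2.35 to 3.84 TPM against 0.805 to 1.25, differed by 0.99 (SE 0.35, adjusted p = 0.0381). Col4a5, at 27.0, 3.17, 32.1 and 31.7 TPM against 17.5, 25.4, 7.37 and 17.7, overlapped between the groups (0.18, SE 0.59, adjusted p = 0.844). Col4a6 (0.26) and Col4a3 (-0.06) were not called either.

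Among the other collagens 8 were called. Col28a1 stood at 26.8, 25.3, 18.2 and 12.8 TPM against 4.71, 5.49, 3.01 and 3.92 (2.01, SE 0.65, adjusted p = 0.0285). Col12a1, a FACIT collagen, stood at 309.7, 253, 187 and 117 against 40.1, 83.3, 44.9 and 47.8 (1.96, SE 0.65, adjusted p = 0.0319). Both were without overlap. Col8a2 stood at 14.3, 23.2, 13.3 and 11.2 against 3.22, 3.86, 2.74 and 3.55 (1.88, SE 0.57, adjusted p = 0.0214). Col13a1 stood at 16.3, 13.2, 7.09 and 6.12 against 2.06, 4.30, 2.22 and 1.58 (1.68, SE 0.61, adjusted p = 0.0430). Col6a1, Col6a2, Col8a1 and Col18a1 differed by 1.44 to 1.66. The type VI partner Col6a3, at 104 to 242 TPM against 56.6 to 94.6, differed by 1.40 (SE 0.53, adjusted p = 0.0521) and so fell just outside the threshold that Col6a1 (adjusted p = 0.0325) and Col6a2 (adjusted p = 0.0327) passed. Members with estimates below 0 were Col6a4 (-0.44), Col9a3 (-0.11), Col6a5 (-0.11), Col22a1 (-0.08) and Col4a3, and none of these was called.

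The count of 16 depended on single libraries. It was 3 without PBS-IP replicate 1, 7 without replicate 3 and 6 without replicate 4, and 2, 2 and 5 without Vancomycin-IP replicates 1, 2 and 3. Without PBS-IP replicate 2 it was 13 and without Vancomycin-IP replicate 4 it was 21. The share of all genes called in these fits was not recorded, so the counts cannot be set beside it. Only Col4a1 and Col5a2 remained called in all 8 fits with a library left out, and the differences of the 16 genes kept their sign in all 8. Without the 12 libraries at the end of the table, 1 Vancomycin-IP library was left against 2. A lone sample has to be assumed to vary like the other groups, so calls of that fit are not given. All 16 genes were higher both within the 12 libraries (3 against 2) and within the others (1 against 2). The median differences over the 39 members were 1.41 and 1.68.

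Other genes that make and handle collagen were also higher in Vancomycin-IP, from lists chosen for their role. Of 20 genes of collagen modification and folding 12 were called higher and 0 lower, with a list median of 1.28. The counts of this and the other lists stand beside 16% of all genes called higher and 526 of 17083 called lower. The largest differences were in P3h2 (2.16), a prolyl 3-hydroxylase, Plod2 (2.04), a lysyl hydroxylase, and Serpinh1 (1.88), the collagen chaperone HSP47, whereas P4hb (-0.63) and Ppib (-0.58), abundant folding enzymes of all secretory cells, were not called. Of 14 genes of procollagen processing and crosslinking 6 were higher, among them the lysyl oxidases Loxl2 (2.73) and Loxl1 (1.71) and the matrix protein Sparc (1.67). Bmp1 (1.51), the procollagen C-proteinase, and Pcolce (0.90), its enhancer, were not called. Of 9 fibril-associated proteoglycans and glycoproteins tested 4 were higher, led by Thbs2 (2.24), Aspn (2.17) and Ogn (1.75), and Tnxb (1.44) and Dcn (1.29) were not called.

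Of 16 basement membrane partners 5 were higher: the laminin chains Lamc3 (2.47), Lamb2 (2.28) and Lamc1 (1.44), the peroxidase Pxdn (1.84), which crosslinks type IV collagen, and the linker Nid1 (1.82). The epithelial laminin chain Lamb3 (-0.72) and the heparan sulphate proteoglycan Hspg2 (1.44) were not called. Of 14 genes of collagen degradation 5 were higher, including the inhibitors Timp2 (1.95) and Timp3 (1.90) and the endocytic receptor Mrc2 (1.86), and the collagenase Mmp13 was lower (-1.03). Mmp15 (-0.01) and Mmp2 (0.30) were not called. Of 10 collagen receptors 5 were higher, led by Itga1 (1.94), Itgb1 (1.78) and Antxr1 (1.78). Ddr1 (0.29), a collagen receptor of epithelial cells, and Itga2 (0.02) were not called. Of 15 genes of TGF-beta signalling, a pathway that induces collagen genes, 10 were higher, among them Ccn2 (3.07) and Tgfb2 (2.45). Ltbp3 (1.72) and Ltbp4 (0.79) were not called.

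Markers of other cell types were read in the same comparison, against the 16% of all genes called higher and the 526 of 17083 called lower. Of the 18 smooth muscle genes 17 were higher, and their summed TPM was 55166 to 92934 in Vancomycin-IP and 11043 to 20087 in PBS-IP. For fibroblasts 3 of 14 markers were higher (summed 1209 to 1986 against 511 to 925), for pericytes 4 of 6 (876 to 3450 against 261 to 534), for endothelium 2 of 10 (153 to 266 against 102 to 185) and for enteric glia and neurons 5 of 11 (589.5 to 1315 against 262 to 325). Of skeletal muscle and macrophage markers 1 each was higher, of 7 and 8, and of squamous, adipocyte, mesothelial and B cell markers 0 were called. The counts for fibroblasts, endothelium, skeletal muscle and macrophages are near the share of all genes. For goblet cells 3 of 8 were lower (529.7 to 6232 against 7931 to 24487), and for colonocytes 0 of 10 were called (2027 to 5900 against 8338 to 14396). No marker of these lists was at 0 in all libraries of a group. In bulk tissue, more cells of a type and more RNA per cell cannot be told apart.

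With the smooth muscle score in the model, 0 of 39 members were called in Vancomycin-IP (limma), beside 0.281% of all genes. At an unadjusted p under 0.05 in this limma fit there were 3 of 39 members, beside 1371 of 17083 genes. The class medians were 0.14 for fibrillar, 0.32 for basement membrane and 0.15 for other collagens, beside 0.06 for all genes. The smallest adjusted p was that of Col5a2, whose difference went from 2.79 to 0.74 (SE 0.29, adjusted p = 0.409). Col4a1 went from 2.27 to 0.49 (SE 0.20, adjusted p = 0.449), Col4a2 from 2.32 to 0.44 (SE 0.21, adjusted p = 0.582), Col1a1 from 2.27 to 0.38 and Col3a1 from 2.05 to 0.13. None of the genes in the 7 collagen handling lists was called with the covariate in this comparison. Since the muscle scores of the 2 groups do not overlap, the adjusted difference rests on slopes estimated within all groups, and treatment and muscle content cannot be told apart here.

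**Figure D2:**
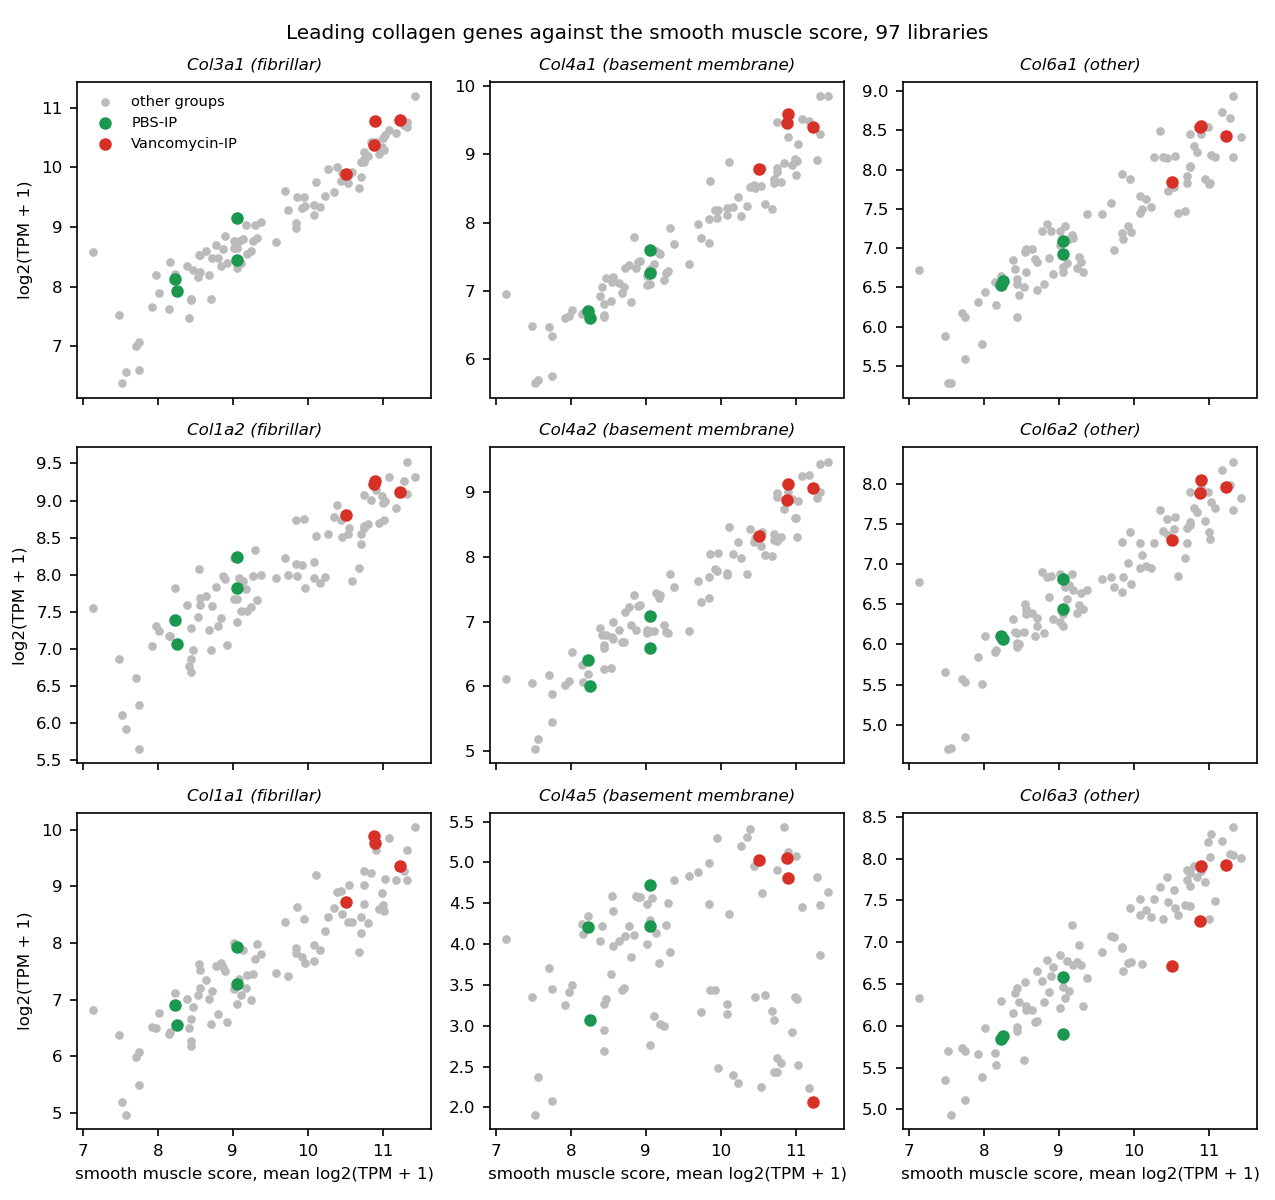
Level of the 3 most abundant members of each class, as log2(TPM + 1), against the smooth muscle score in 97 libraries (points; PBS-IP in green, Vancomycin-IP in red, the other 16 groups in grey). Levels of 8 of the 9 genes rise with the score across libraries, with slopes from 0.59 (Col6a2) to 0.86 (Col3a1), and Col4a5 has a slope of -0.00.

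In the other 14 comparisons 0 of 39 members were called without the covariate (limma, 20 of 546 member tests at an unadjusted p under 0.05). The share of all genes called by gavage was 0.0702% with ampicillin, 0% with metronidazole, 0.0176% with neomycin, 0.176% with vancomycin and 0.252% with the mix. The share by the intraperitoneal route was 0.492% with ampicillin, 0% with metronidazole, 0.603% with neomycin and 0.275% with the mix. By the intravenous route it was 0.0820% with ampicillin, 0% with metronidazole, 0.544% with neomycin, 0.258% with vancomycin and 0% with the mix. The counts of members are therefore set against a background of few calls in most of these comparisons. Ampicillin-PO had the next largest shift, a median member difference of 0.73 with 33 of 39 members above 0. In it 9 members had an unadjusted p under 0.05 (limma), beside 2709 of 17083 genes. Metronidazole-IP followed with a median of 0.71 and 35 of 39 above 0. Neomycin-IV had the lowest median, -0.40, with 5 of 39 above 0, and Neomycin-IP had 36 of 39 above 0 with a median of 0.32. The medians of all genes were 0.08 in Ampicillin-PO, 0.07 in Metronidazole-IP, -0.03 in Neomycin-IV and 0.08 in Neomycin-IP. With the muscle score in the model, the member medians were 0.09, 0.06, -0.14 and 0.15 in this order. Then 23, 20, 12 and 30 of 39 members were above 0.

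Oral ampicillin, a penicillin, gave Col5a2 levels from 58.7 to 345 TPM (median 245) against 27.7 to 156 (median 45.8) in PBS-PO. These groups overlapped, and the difference of 1.70 had an adjusted p = 0.270. Col4a1 ran from 187 to 731 TPM (median 542) against 101 to 443 (median 152), and Col1a1 from 147 to 929 (median 573) against 84.8 to 409.7 (median 167). The muscle score of Ampicillin-PO was 10.4 ± 0.80 (SD, n = 6) and that of PBS-PO 9.26 ± 0.89 (SD, n = 6).

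With the muscle score in the model 0 of 39 members were called in any of the 15 comparisons (limma, 45 of 585 member tests at an unadjusted p under 0.05), while the calls over all genes rose in several. They were 0.111% with ampicillin, 0% with metronidazole, 0.0293% with neomycin, 0.281% with vancomycin and 1.35% with the mix by gavage. The values by the intraperitoneal route were 2.06% with ampicillin, 0% with metronidazole, 1.08% with neomycin, 0.281% with vancomycin and 3.13% with the mix. By the intravenous route they were 0.386% with ampicillin, 0% with metronidazole, 0.714% with neomycin, 0.205% with vancomycin and 0.0410% with the mix. Class medians then ran from -0.26 (Vancomycin-IV) to 0.22 (Ampicillin-PO) for fibrillar, from -0.44 (Mix-IP) to 0.32 (Vancomycin-IP) for basement membrane and from -0.18 (Vancomycin-IV) to 0.18 (Neomycin-IP) for other collagens. Without the covariate the fibrillar medians had run from -0.54 to 1.68, the basement membrane medians from -0.57 to 0.63 and those of other collagens from -0.29 to 1.40.

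The members nearest to a call with the covariate were in the groups given all 4 antibiotics. Col5a2 was higher by 0.73 in Mix-PO (SE 0.22, adjusted p = 0.0750), and it was called when replicate 4 or replicate 5 of that group was left out. In Mix-IP Col14a1, a FACIT collagen, was at -0.94 (SE 0.35, adjusted p = 0.102) and Col1a2 at -0.59 (SE 0.22, adjusted p = 0.104). Without Mix-IP replicate 6, 5 members of this comparison were called (Col14a1, Col1a2, Col3a1, Col25a1 and Col27a1). Without PBS-IP replicate 3, 4 of them were (all but Col3a1). For the fits with a library left out the share of all genes called was not recorded. Of the collagen handling genes, Tgfbi (1.30) and Ddr1 (0.69) were higher in Mix-PO with the covariate. In Mix-IP Itgb1 (0.67) was higher and Ppib (-0.82) and Mmp13 (-1.17) were lower. Over all genes 1.35% were called in Mix-PO and 3.13% in Mix-IP with the covariate. Beside these shares, so few calls among all genes of the collagen handling lists say nothing particular to collagen handling. No gene of these lists was called in another comparison with PBS outside Vancomycin-IP, with or without the covariate.

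**Figure D3:**
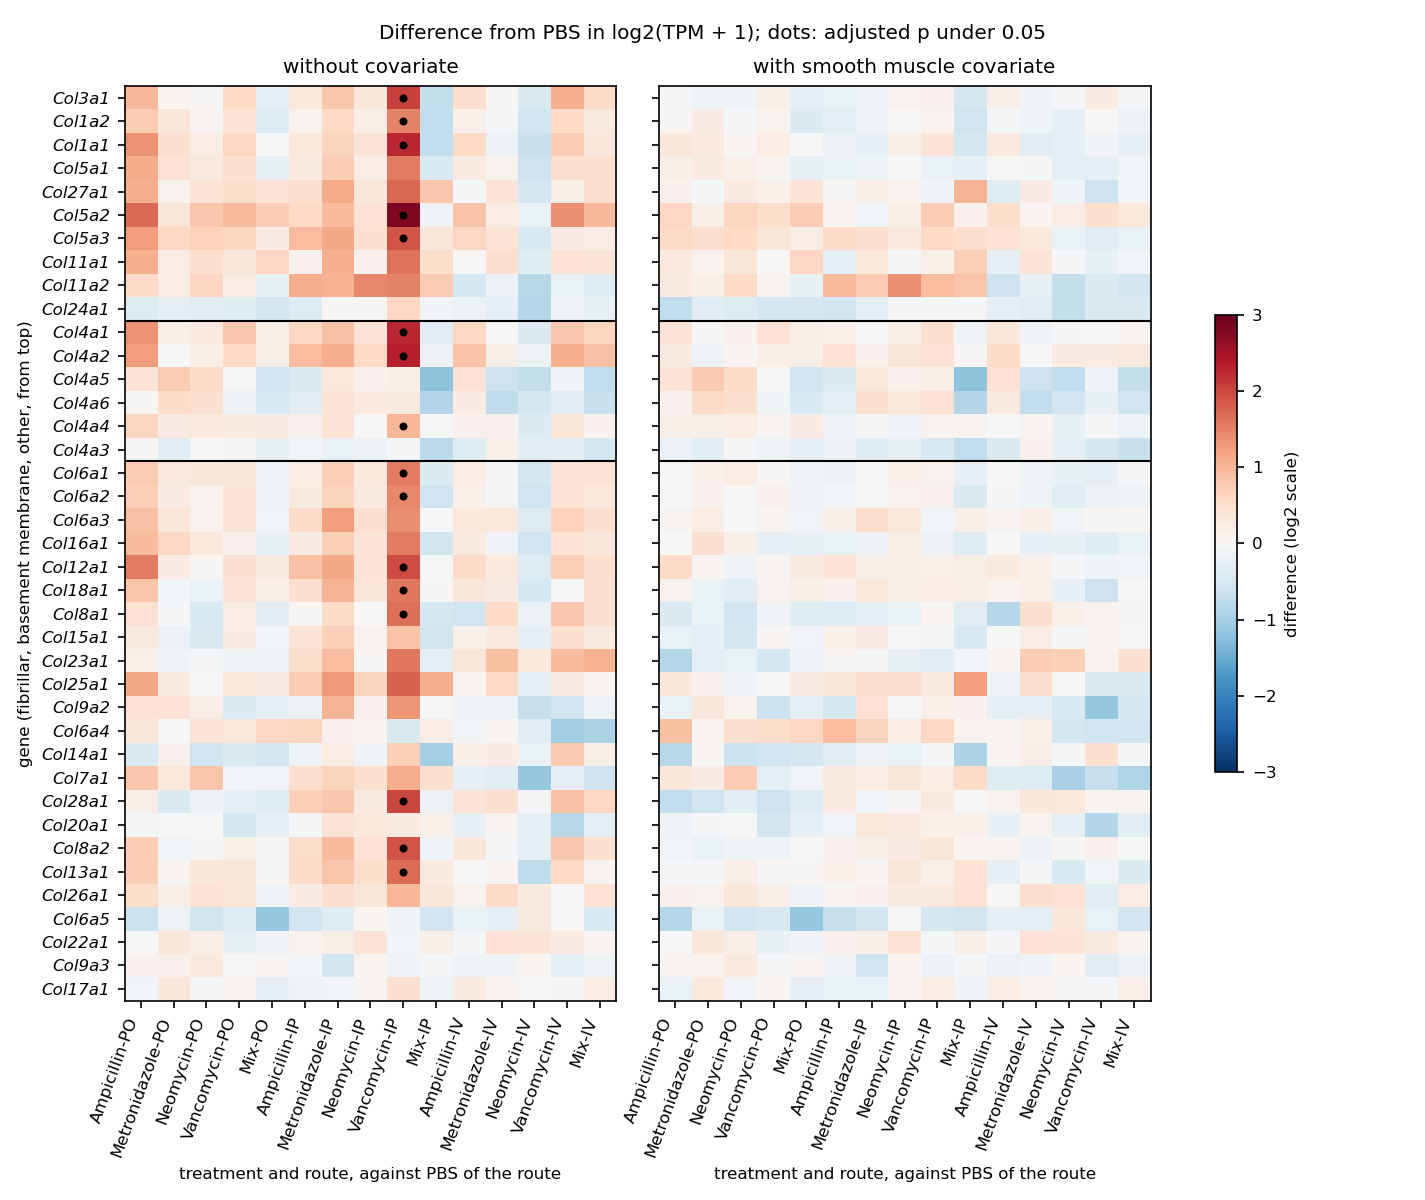
Difference of each member from the PBS group of its route, in log2(TPM + 1), for the 15 antibiotic groups, without (left) and with (right) the smooth muscle covariate; black dots mark an adjusted p under 0.05. Dots appear for 16 members in Vancomycin-IP on the left and for 0 members on the right.

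Over all 18 groups at once, 6 of 39 members differed by the F test without the covariate, beside 13.1% of genes. The count is near the share among all genes and says nothing particular to collagens. By this F test the 6 were Col5a2 (adjusted p = 0.0224), Col4a1 (0.0265), Col1a2 (0.0359), Col1a1 (0.0383), Col3a1 (0.0416) and Col4a2 (0.0434). They are the chains of types I and III, 2 of the 6 type IV chains and the alpha 2 chain of type V. Vancomycin-IP had the highest mean of all 18 groups for each of them. Col5a2 ran from 44.6 ± 11.1 TPM (SD, n = 4) in PBS-IP to 323 ± 113 (SD, n = 4), Col4a1 from 136 ± 131 (SD, n = 6) in Mix-IP to 648 ± 143 (SD, n = 4) and Col4a2 from 94.4 ± 30.1 (SD, n = 4) in PBS-IP to 470.1 ± 106 (SD, n = 4). Col1a1 ran from 111 ± 94.9 in Mix-IP to 725 ± 237, Col1a2 from 142 ± 105 in Mix-IP to 553 ± 75.4, and Col3a1 from 320.5 ± 385 in Mix-IP to 1454 ± 393 (SD, n = 6 and 4). Without the Vancomycin-IP libraries 0 members were called by this test, beside 6.13% of genes. Of the collagen handling genes Lox, a lysyl oxidase that crosslinks collagen, is named here after its values were seen. It was called by the F test both without (adjusted p = 1.5e-06) and with the covariate (adjusted p = 0.000462). Lox is 1 gene picked from 7 lists, and how many list genes this test called is not given here. Over all genes 13.1% were called without and 10.1% with the covariate.

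Of the other leading members, Col6a1 had group means from 97.5 ± 69.5 TPM (SD, n = 6) in Mix-IP to 330.3 ± 69.0 (SD, n = 4) in Vancomycin-IP, and Col6a2 from 64.6 ± 46.9 to 225 ± 47.8 in the same groups. Col6a3 ran from 67.0 ± 18.5 (SD, n = 4) in PBS-IP to 203 ± 104 (SD, n = 5) in Vancomycin-IV. Col4a5 ran from 7.09 ± 4.08 (SD, n = 6) in Mix-IP to 23.9 ± 10.5 (SD, n = 6) in Metronidazole-PO. None of these 4 genes was called by the F test.

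With the muscle covariate 0 members were called by the F test (limma), beside 10.1% of genes. At an unadjusted p under 0.05 in this F test there were 6 of 39 members, beside 4498 of 17083 genes. The smallest adjusted p was that of Col8a1, 0.0516, a network-forming collagen of vessel walls. Its group means ran from 11.7 ± 10.4 TPM (SD, n = 6) in Mix-IP to 48.8 ± 25.3 (SD, n = 4) in Vancomycin-IP. Without the Vancomycin-IP libraries Col8a1 was called in the fit with the covariate, beside 10.1% of genes.

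Route was tested directly, as a difference of the effect against PBS among the 3 routes. For ampicillin, metronidazole, the mix and vancomycin 0 members and 0% of genes were called, with and without the covariate. For neomycin 0 members were called beside 0.0878% of genes without and 0.135% with the covariate. Without the covariate 2 members had an unadjusted p under 0.05 for neomycin (417 of 17083 genes did), 2 for vancomycin (1127 genes) and 0 for the others (limma). With it the counts were 2 for neomycin (587 genes), 1 for ampicillin (370 genes) and 0 for the others. The calls in Vancomycin-IP and their lack in Vancomycin-PO and Vancomycin-IV are thus not shown to differ by route.

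Muscle content among libraries of 1 group was followed by most members. In the fit over all groups, 33 of 39 members had a slope on the muscle score that passed the test, beside 74.9% of all genes. Of these 32 were higher (41.7% of genes were) and 1, Col6a4, was lower (33.2% of genes were). The median slope was 0.72 for fibrillar, 0.29 for basement membrane and 0.59 for other collagens, in log2(TPM + 1) per unit of the score, beside 0.02 for all genes. The smooth muscle genes themselves had a median of 1.01. Without the Vancomycin-IP and PBS-IP libraries 34 members were called, beside 74.9% of genes. With a score of the 8 goblet cell markers in place of the muscle score, 31 members had a called slope, beside 75.7% of genes. The direction of those slopes was not recorded.

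All 10 fibrillar collagens rose with the score. The largest slopes were those of Col5a2 (0.92, SE 0.04), Col3a1 (0.86, SE 0.03), Col1a1 (0.84, SE 0.04) and Col27a1 (0.81, SE 0.07), and the smallest were those of Col24a1 (0.29, SE 0.05) and Col11a2 (0.25, SE 0.09). Col1a2 (0.62, SE 0.04) had a lower slope than its partner Col1a1. Of the type IV chains Col4a2 (0.84, SE 0.03), Col4a1 (0.79, SE 0.03) and Col4a4 (0.40, SE 0.03) rose. Col4a3 (0.17, SE 0.08, adjusted p = 0.0515), Col4a5 (-0.00, SE 0.09, adjusted p = 0.968) and Col4a6 (-0.08, SE 0.08, adjusted p = 0.361) did not pass. With Col15a1 and Col18a1 in the class, its median slope was 0.40.

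Of the other collagens 19 rose, led by Col23a1 (0.85, SE 0.06), Col12a1 (0.81, SE 0.04), Col28a1 (0.78, SE 0.05) and Col16a1 (0.78, SE 0.04). The 3 major type VI chains had similar slopes, 0.65 for Col6a1, 0.59 for Col6a2 and 0.67 for Col6a3. Col6a4, the type VI chain that fell, had a slope of -0.47 (SE 0.09, adjusted p = 3.1e-06). Its level ran from 0.849 to 41.4 TPM, and its lowest group mean was 5.63 ± 1.59 (SD, n = 5) in Vancomycin-IV. Col20a1 (0.05), Col9a3 (0.03) and Col22a1 (-0.01) did not pass.

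**Figure D4:**
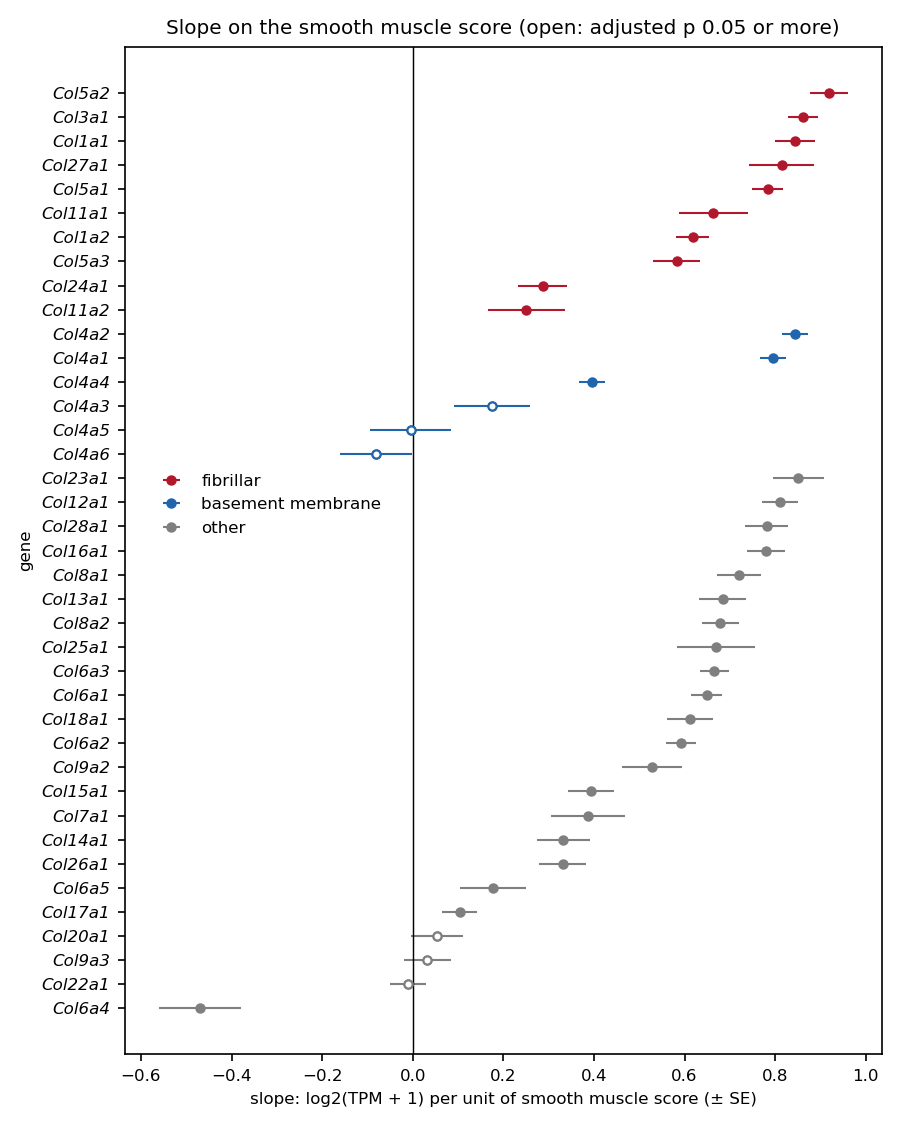
Slope of each member on the smooth muscle score (log2(TPM + 1) per unit of score, ± SE) in the fit over all 18 groups, by class; open circles did not pass the test. The fibrillar slopes lie between 0.25 and 0.92, 3 of the 6 type IV chains did not pass, and Col6a4 stands alone at -0.47.

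The muscle score took up most of the spread of the abundant chains within groups. With the score in the model, the residual variance left was 8.82% for Col4a2, 9.30% for Col4a1, 10.4% for Col3a1, 13.3% for Col5a1, 14.1% for Col5a2 and 15.5% for Col6a3. For Col1a1 it was 18.5% and for Col6a1 17.5%. For Col4a5 (101%), Col22a1 (101%), Col9a3 (101%), Col20a1 (100.2%) and Col4a6 (100.0%) the score removed no variance. These figures describe this fit and carry no test.

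The slopes of the collagen handling lists on the score are read against 41.7% of all genes that rose and 33.2% that fell. Of the crosslinking and processing genes 14 of 14 rose (Loxl2 0.99, Adamts2 0.84, Sparc 0.70) and of the proteoglycans 9 of 9 (Aspn 0.99, Lum 0.83, Thbs2 0.78). Of modification and folding genes 16 of 20 rose and 4 fell, the latter being P4hb and Ppib, folding enzymes, Creb3l1, a transcription factor that induces collagen genes, and Mia3, which exports procollagen from the endoplasmic reticulum. Of basement membrane partners 12 of 16 rose and 2 fell, Lama3 and Lamb3, both chains of the epithelial laminin. Of TGF-beta genes 13 of 15 rose and 1 fell, of degradation genes 9 of 14 rose and 2 fell, and of receptors 7 of 10 rose and 3 fell. Goblet cell markers fell in 8 of 8 and colonocyte markers in 8 of 10.

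Position along the colon, as far as the posterior Hox genes measure it, was set beside the members' levels as a slope on the Hox score. This slope was fitted beside the muscle score after the data had been seen. Of 39 members 23 were called, beside 61.0% of all genes, so the count is near the share among all genes and says nothing particular to collagens. 9 were higher in libraries of higher Hox score (29.7% of genes were) and 14 were lower (31.3% of genes were). Col4a5 (0.35, SE 0.04) and Col4a6 (0.25, SE 0.04), which had no muscle slope, had the largest positive slopes. Their products pair in the basement membrane of smooth muscle. Col16a1 (0.15), Col1a1 (0.14), Col14a1 (0.14), Col6a5 (0.14), Col1a2 (0.13), Col5a1 (0.10) and Col3a1 (0.08) were also higher.

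The lowest distal slopes were those of 2 further fibrillar collagens, Col11a1 (-0.33, SE 0.03) and Col27a1 (-0.32, SE 0.03). Col25a1 (-0.30, SE 0.04), Col6a4 (-0.24, SE 0.05), Col23a1 (-0.19, SE 0.03), Col18a1 (-0.19, SE 0.03) and Col5a3 (-0.15, SE 0.03) followed. Col4a1 and Col4a2 (0.01 each) and Col5a2 (0.02) did not pass. The fibrillar class therefore held members with slopes of both signs, while on the muscle score all its members rose. Hox scores overlapped between Vancomycin-IP (1.97 to 5.08) and PBS-IP (1.36 to 5.26).

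Partner chains of 1 protein were compared as ratios within each library. Type IV collagen holds 2 copies of the Col4a1 chain for each Col4a2 chain, and type I holds 2 of Col1a1 for each Col1a2. The log2 ratio of Col4a1 to Col4a2 had an SD of 0.18 over 97 libraries, while the log2 levels of the chains themselves had SDs of 1.00 and 1.04. Col4a1 was the higher in 94 of 97 libraries, with a median ratio of 1.27. Col6a1 to Col6a2 was as steady, with an SD of 0.16 and a median ratio of 1.41, and Col6a1 was the higher in 96 of 97. Col6a2 to Col6a3 had an SD of 0.31 and a median ratio of 0.988. Col4a5 was above Col4a6 in 97 of 97 libraries, with a median ratio of 3.29 and an SD of 0.38 on the log2 scale.

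The fibrillar pairs were less steady than Col4a1 to Col4a2 and Col6a1 to Col6a2. Col1a1 to Col1a2 had an SD of 0.39, near the 0.38 of the type IV pair Col4a5 to Col4a6, and a median ratio of 0.838. Its group mean on the log2 scale was lowest in PBS-IP, at -0.46, and highest in Vancomycin-IP, at 0.33. The 4 PBS-IP libraries stood at -0.48, -0.30, -0.52 and -0.54 and the 4 Vancomycin-IP libraries at 0.52, 0.24, 0.66 and -0.09, so the groups did not overlap. Col5a1 to Col5a2 had an SD of 0.57. It was lowest in Vancomycin-IP, at -0.74, -0.17, -0.56 and -0.43, and stood at 1.00, 1.15, 0.51 and 0.43 in PBS-IP, again without overlap. The highest group mean was 0.83 in Metronidazole-PO. Among the type VI pairs, the ratios of Col6a1 to Col6a3 (0.90) and of Col6a2 to Col6a3 (0.35) also had their highest group means in Vancomycin-IP. Both overlapped with PBS-IP, at 0.50 to 1.29 against 0.52 to 1.03 and at 0.03 to 0.63 against 0.19 to 0.55. These ratios were given no test, and the part of muscle content in them was not tested.

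**Figure D5:**
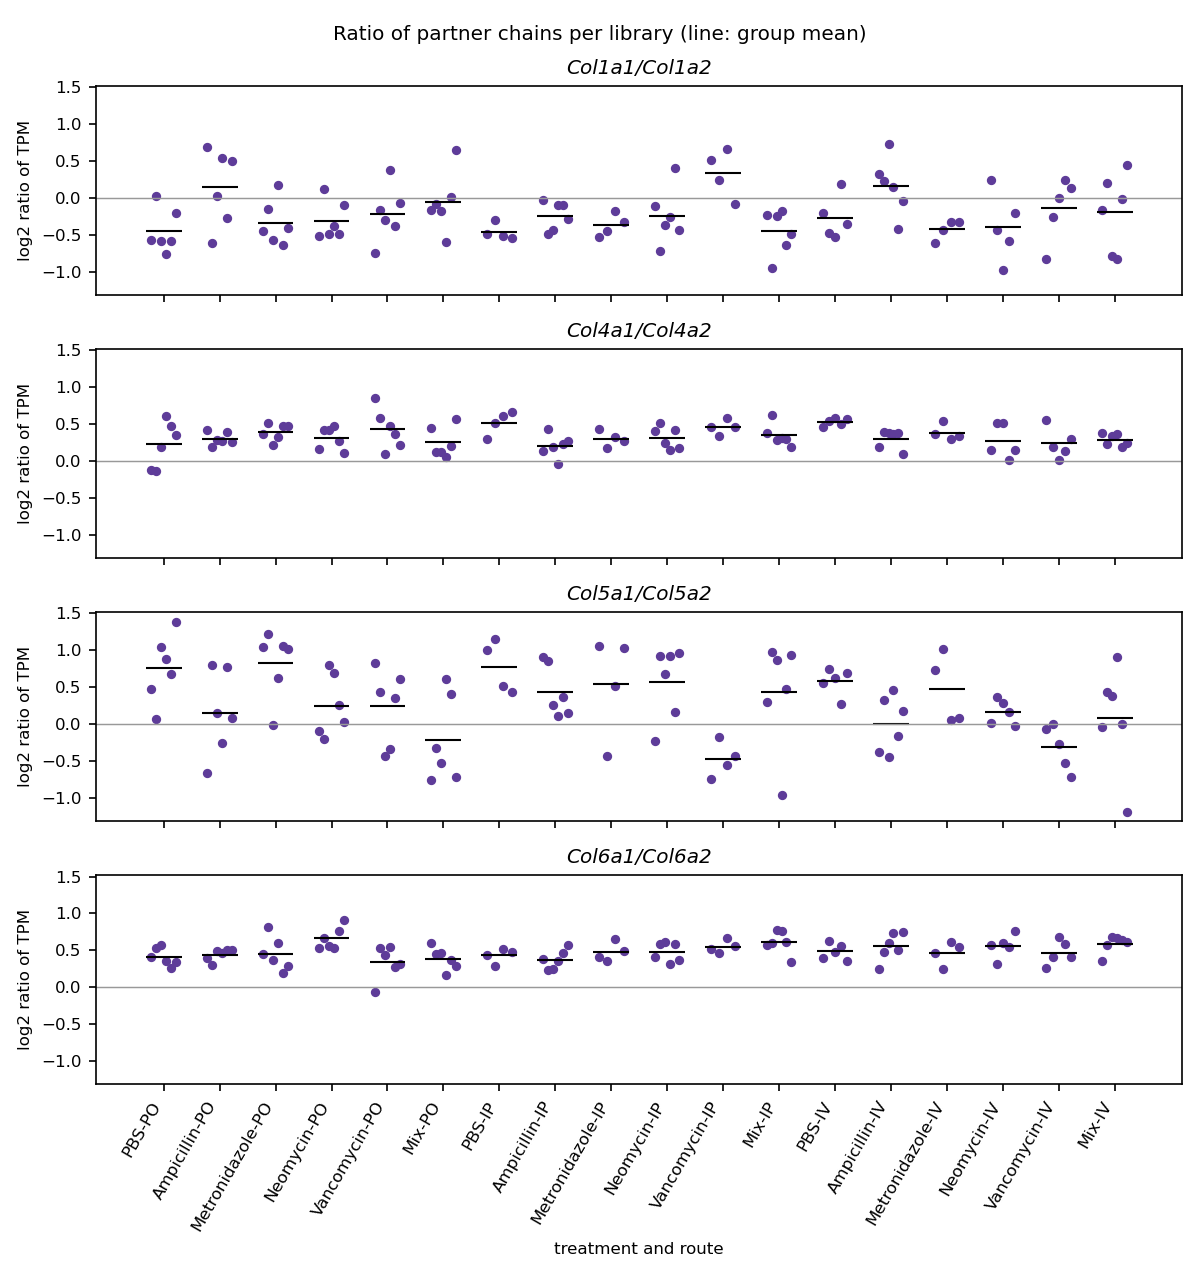
Log2 ratio of TPM of 4 pairs of partner chains in each library (points), by treatment and route, with the group mean (line) and a grey line at equal levels. The Col4a1 to Col4a2 and Col6a1 to Col6a2 ratios stay within narrow bands (SD 0.18 and 0.16), whereas Col5a1 to Col5a2 spreads from -1.18 to 1.39.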

How the data were processed

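RNA of whole mouse colon was sequenced in 97 libraries of 18 groups. The submitters' processing notes name Trim Galore 0.6.2, cutadapt 3.5, Salmon and GRCm39; for Salmon no version is recorded there. The authors deposited TPM per gene, scaled to 1000000 per library, so depth is unknown and no interval for counting error is given. TPM also moves each gene with the rest of the library.

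Members and lists were chosen with earlier results of these data known. Genes with at least 1 TPM in at least 4 libraries (17083) were tested with limma 3.58.1 (R 4.3.3; trend and robust) on log2(TPM + 1), all groups in 1 fit, with and without the smooth muscle score. A pseudocount of 1 understates changes of low genes. Adjusted p-values are Benjamini-Hochberg over all tested genes, with a threshold of 0.05, two-sided. The labels tie no library to a separate mouse, so p-values measure the spread between libraries. Genes were named as follows: every member by level; the 3 most abundant of each class and the 4 called members of largest change per class by group; of each pathway list up to 3 called and 2 uncalled genes. The result of 1 gene under this rule is not reported here. Script steps were tested on simulated data. Alternatives were another pseudocount, no filter, quantile normalization, rescaling without mitochondrial genes, array weights, other covariates, a replicate block, and left-out libraries. Same-numbered libraries of different groups did not deviate together (mean r 0.0166).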

Additional observations from a re-analysis of the deposited data

Results flagged for a closer look

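Of 216 sets (9 leading members and 3 class totals in each of 18 groups), 11 held a library that stood far from the others of its group, and 1 in 20 is the rate that chance gives. The 11 fell in 7 libraries. In Neomycin-IP, replicate 5 was the highest for Col1a1 (519.6 TPM, the other 5 libraries at 116 to 191), Col4a1 (445, others 103 to 170.4), Col6a3 (169, others 71.8 to 95.9), fibrillar collagens summed (2402, others 739 to 1080) and other collagens summed (1367, others 479 to 639.9). Its smooth muscle score was 10.6 and those of the others 8.23 to 8.90. In Mix-IP, replicate 1 was the highest for Col6a3 (213 TPM, others 33.5 to 65.0), with a muscle score of 10.7 against 7.52 to 8.68. The lowest library for Col6a2 was replicate 3 of Neomycin-IV (25.1 TPM, others 78.6 to 123), with a muscle score of 7.57 against 8.39 to 10.2. The part of muscle content in these values was not tested.

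Col4a5 was far lower than in the rest of the group in replicate 3 of Metronidazole-PO (6.95 TPM, others 21.7 to 38.5), replicate 1 of Neomycin-PO (5.48, others 18.7 to 35.7) and replicate 2 of Vancomycin-IP (3.17, others 27.0 to 32.1). Col6a3 in PBS-IP was highest in replicate 2 (94.6 TPM, others 56.6 to 58.9), whose muscle score of 9.05 was matched by another library of the group.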

How the results depend on the processing

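With array weights (Benjamini-Hochberg adjusted, as throughout), calls over all genes rose steeply. Members called of 39, with the share of all genes in parentheses, were 10 in Ampicillin-PO (18.1%), 1 in Ampicillin-IP (9.69%), 1 in Mix-PO (9.52%), 12 in Mix-IP (36.7%), 1 in Neomycin-IP (6.67%), 31 in Vancomycin-IP (57.9%), 18 in Vancomycin-IV (31.1%), 36 by the F test over 18 groups (91.4%), 9 by the route test of the mix (11.6%) and 4 by that of vancomycin (17.4%). With the muscle covariate they were 2 in Mix-PO (11.4%), 14 in Mix-IP (39.1%), 1 in Neomycin-IP (6.18%), 1 in Vancomycin-IP (5.27%), 21 by the F test (61.6%) and 2 by the route test of the mix (12.4%). Several of these counts, among them those of Mix-IP and of the F test with the covariate, are at or below the share of all genes. Shares of all genes stay in parentheses below where they were recorded. Rescaling without mitochondrial genes gave 10 in Vancomycin-IP (15.5%). By the F test it gave 2 (11.3%), and 1 with the covariate (12%). Quantile normalization gave 2 by the F test (10.7%), and 1 with the covariate (9.75%). It moved the median of all genes in Vancomycin-IP from 0.11 to -0.06. A pseudocount of 10 gave 1 by the F test with the covariate (10.8%) and a median of 0.76 for other collagens in Vancomycin-IP. Comparing Vancomycin-IP and PBS-IP alone gave 26 (30.8%). Without the libraries at the end of the table, the count was 1 in Mix-IP with the covariate (4.26%). That fit left 1 library in Vancomycin-IP, so its calls there and by its F tests are not given. Without Vancomycin-IP, the F test gave 0 (6.13%), and 1 with the covariate (10.1%). Replicate numbers did not pair the libraries. The replicate block gave 15 in Vancomycin-IP (19.3%) and 1 by the F test with the covariate (10.8%). From the rescaling on, each F test count that carries a share was below it. Leaving out single libraries gave 2 to 21 in Vancomycin-IP, and with the covariate 0 to 5 in Mix-IP and 0 to 1 in Mix-PO. The share of all genes was not recorded for those fits. The causes were not tested. No difference of the 16 called members changed sign under any alternative fitted without a covariate. Signs under the alternatives with a covariate were not recorded. The depth of the libraries is unknown, and groups of 4 to 6 limit what could be called.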
